A study of Mus musculus with 8 samples.

Results

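Cholesterol synthesis and its control by the transcription factor SREBP2 were followed through 8 genes, the synthesis enzymes Hmgcs1, Fdft1, Sqle, Lss, Cyp51 and Dhcr7 and the regulators Srebf2 and Insig1. The 8 are a list of gene names looked up among the 26930 Ensembl identifiers of the count table, and each was found and had enough reads to be among the 12852 genes tested. The study sequenced poly(A) RNA of MDSCs (myeloid-derived suppressor cells of the mouse, which are immature and dampen T cell responses) on a NextSeq 500. In every group the cells came from C57BL/6 bone marrow cultured with GM-CSF and IL-6 (40 ng/ml of each), were moved to medium conditioned by TRAMP-C1, a mouse prostate tumour line, on day 4, and are called senescent-like by the labels. The first group of 4 libraries received 0.5 µM Romidepsin, a histone deacetylase inhibitor, for 6 h, and the second group of 4 libraries was left untreated. No label names separate cultures or animals, so the p-values reflect the spread between libraries, part or all of which may be technical.

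Cells build cholesterol from acetyl-CoA by way of mevalonate, squalene and lanosterol. When sterols in the endoplasmic reticulum run low, the escort protein SCAP carries SREBP2 to the Golgi, where proteases release its active part to switch on the synthesis enzymes. When sterols are plentiful, INSIG1 and INSIG2 hold SCAP back. Insig1 is itself a known SREBP2 target, so it usually moves together with the enzymes. In myeloid cells the pathway is best known from macrophages, which also take up and export cholesterol.

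After Romidepsin, 4 of the 6 synthesis enzymes were higher and 0 were lower in edgeR's test (0 also at an unadjusted p under 0.05, in DESeq2 and in limma-voom), against 20.3% of all tested genes that were higher and 16.2% that were lower. Without Romidepsin replicate 1, Romidepsin replicate 2 or untreated replicate 3, 2 of the 6 were higher. Of all tested genes, 1793 of 12986, 1838 of 13044 and 1794 of 13203 were higher there, in that order. Dhcr7, Sqle, Fdft1 and Lss rose, with log2 fold changes (Romidepsin over untreated) between 1.04 and 1.5. Hmgcs1 and Cyp51 did not pass the test. Among the regulators, Insig1 fell by 1.20 on the log2 scale, and Srebf2 did not pass at 0.19. The enzymes that rose and the SREBP2 target Insig1 thus had fold changes of opposite sign.

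Promoter sequences show which of the known binding letters for SREBP2 and its partners stand before these genes. In RefSeq's promoter windows on GRCm38.p6, which run from 250 bases before to 50 bases after each transcription start, 6 of the 8 genes have an entry, and Sqle and Fdft1 have none. The letters TCACNCCAC (sterol regulatory element core), CCAAT (bound by NF-Y) and GGGCGG (bound by Sp1) were searched on both strands, and no match in the windows of these 6 genes overlaps another. The 3 stretches shown, each the part of a window before the first annotated transcript, contrast an enzyme that rose (Dhcr7), the regulator that fell (Insig1) and an enzyme that did not pass (Hmgcs1). The stretches lie at chr7:143822917-143823144, chr5:28071162-28071362 and chr13:119690101-119690350, all on the + strand and read 5′ to 3′ with the matches in capitals, where ATTGG and CCGCCC are the CCAAT and GGGCGG letters on the other strand.
Dhcr7: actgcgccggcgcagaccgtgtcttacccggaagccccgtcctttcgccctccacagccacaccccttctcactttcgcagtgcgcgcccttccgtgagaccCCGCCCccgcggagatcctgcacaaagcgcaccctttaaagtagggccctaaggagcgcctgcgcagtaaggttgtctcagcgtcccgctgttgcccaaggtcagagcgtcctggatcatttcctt
Insig1: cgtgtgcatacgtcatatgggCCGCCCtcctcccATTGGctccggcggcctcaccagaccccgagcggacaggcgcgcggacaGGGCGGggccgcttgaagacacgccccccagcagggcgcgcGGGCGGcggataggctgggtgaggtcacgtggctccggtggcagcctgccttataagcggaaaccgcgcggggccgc
Hmgcs1: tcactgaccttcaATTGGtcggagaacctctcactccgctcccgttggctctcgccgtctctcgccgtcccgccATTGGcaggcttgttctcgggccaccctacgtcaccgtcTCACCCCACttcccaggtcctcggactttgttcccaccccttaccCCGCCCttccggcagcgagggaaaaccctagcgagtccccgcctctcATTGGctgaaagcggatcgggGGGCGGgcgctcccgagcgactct

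TCACNCCAC occurred in 1.24% of all 32851 windows and, of the 6 genes with an entry, in Hmgcs1 alone, beginning 137 bases before the start. CCAAT was found in 37.4% and GGGCGG in 35.7% of all windows. Counted by gene, 41.1% of all 27025 genes have a window with CCAAT and 38.2% one with GGGCGG, and each was found in a window of all 6 genes. The printed Dhcr7 stretch holds a GGGCGG on the other strand 148 bases before the start and no CCAAT. Another of the 3 RefSeq starts of Dhcr7 has CCAAT letters 85 and 49 bases before it. The genes of the wider sterol-related lists described below were searched too. Together with the genes above, TCACNCCAC was found in 1 of 61 genes with a window (1.64%), against 1.44% of all genes. A match describes the letters in the window and is not a measured binding site. Only these exact letters were searched, so a window without them is not shown to lack a site for SREBP2. Binding was not tested.

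Total counts ranged from 13227311 to 15396077 in the Romidepsin libraries and from 12996892 to 23176949 in the untreated libraries. Romidepsin replicate 3 stood apart from the other treated libraries, since its mean correlation was 0.910 with them and 0.934 with the untreated libraries. All 8 myeloid markers were detected, which shows myeloid cells but does not by itself establish the labelled cell type. Ly6g, the granulocytic marker, stayed at or below 11.5 CPM (counts scaled to library size) in Romidepsin and 19.6 CPM in untreated libraries. Summed myeloid markers ranged from 1075 to 6178 CPM in Romidepsin and from 7379 to 11540 CPM in untreated libraries, and summed B cell markers from 17.5 to 77.7 CPM in Romidepsin and from 82.9 to 279 CPM in untreated libraries. T and NK cell markers summed to 1.03 to 3.56 CPM with Romidepsin and 4.06 to 8.59 CPM in untreated libraries, and mast cell and basophil markers to 5.91 to 23.8 CPM with Romidepsin and 20.6 to 31.7 CPM in untreated libraries. The 4 epithelial and stromal markers found summed to 6.79 to 154 CPM with Romidepsin and 2.85 to 43.8 CPM in untreated libraries. In both groups the highest of these sums was in replicate 2 and came mostly from Col1a1 and Col1a2. Replicate 2 also had the highest B cell sum of each group. Erythroid and megakaryocyte markers summed to 313 to 699 CPM with Romidepsin and 292 to 632 CPM in untreated libraries, mostly Pf4. The myeloid, B cell and T and NK cell sums did not overlap between the groups, and their part in the results that follow was not tested. In such bulk RNA, fewer cells of a type and less RNA per cell cannot be told apart.

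Fdft1, farnesyl-diphosphate farnesyltransferase 1, makes squalene and commits isoprenoids to sterols. Its level was 83.2, 65.6, 55.0 and 67.4 CPM in Romidepsin replicates 1 to 4, against 49.6, 21.1, 24.9 and 23.01 CPM in untreated replicates 1 to 4. Every Romidepsin library lay above every untreated one, and untreated replicate 1 was the high one of its group. The log2 fold change was 1.19 ± 0.28 (SE) and the adjusted p 0.0129 in edgeR's quasi-likelihood test with Benjamini-Hochberg adjustment. Fdft1 (chromosome 14, 63145150 to 63179578, − strand) shares 774 exon bases with Ctsb on the opposite strand, and the strand setting of the counting is not given in the sources used here. Ctsb averaged 7564 CPM in Romidepsin and 11180 CPM in untreated libraries, so its fold change (−0.56, adjusted p = 0.365) had the opposite sign and passed with the libraries paired by number (−0.60, adjusted p = 0.0336).

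Sqle, squalene monooxygenase, adds the oxygen that precedes ring closure and is a known rate-limiting step. It measured 111, 103, 60.6 and 90.9 CPM in Romidepsin replicates 1 to 4 and 74.8, 19.2, 33.3 and 32.1 CPM in untreated replicates 1 to 4. The groups overlapped because untreated replicate 1 exceeded Romidepsin replicate 3, although each Romidepsin library was above the untreated library of the same number. The means were 91.2 ± 22.04 CPM with Romidepsin and 39.8 ± 24.2 CPM without it (SD, n = 4 each), a log2 fold change of 1.20 ± 0.39 (edgeR adjusted p = 0.0380). The Sqle call was lost without any 1 of Romidepsin replicates 1, 2 and 4 or of untreated replicates 2, 3 and 4, with adjusted p from 0.0755 to 0.0999. It was also lost without both libraries of number 3 (adjusted p = 0.0572) and with no count filter (adjusted p = 0.0727).

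Lss, lanosterol synthase, closes the rings to give lanosterol. Romidepsin replicates 1 to 4 held 51.6, 53.0, 27.3 and 38.1 CPM, and untreated replicates 1 to 4 held 26.6, 13.1, 18.7 and 24.2 CPM. The groups did not overlap, but Romidepsin replicate 3 and untreated replicate 1 were nearly level. Lss rose by 1.04 ± 0.28 on the log2 scale (edgeR adjusted p = 0.0198). That call was lost without Romidepsin replicate 1 (adjusted p = 0.0539), Romidepsin replicate 2 (adjusted p = 0.0521) or untreated replicate 3 (adjusted p = 0.0586). Lss (chromosome 10, 76531588 to 76557138) shares 381 exon bases with 4930483K19Rik on the opposite strand.

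Dhcr7, 7-dehydrocholesterol reductase, carries out the last step to cholesterol. The CPM were 93.8, 90.6, 42.3 and 78.3 in Romidepsin replicates 1 to 4, against 31.2, 22.5, 26.7 and 27.2 in untreated replicates 1 to 4. Romidepsin replicate 3 was the lowest treated library and still lay above every untreated one. With means of 76.2 ± 23.6 CPM after Romidepsin and 26.9 ± 3.56 CPM without it (SD, n = 4 each), Dhcr7 had the highest fold change of the 6 enzymes, at 1.5 ± 0.25 (log2, edgeR adjusted p = 0.00331, 95% interval 0.94 to 2.07). Dhcr7 lies on chromosome 7 at 143823145 to 143848410 and shares no exon bases with another gene.

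The other two enzymes did not pass the test. Hmgcs1, cytosolic HMG-CoA synthase, makes HMG-CoA for the mevalonate pathway and measured 75.3, 77.8, 77.4 and 90.5 CPM in Romidepsin replicates 1 to 4, against 133, 48.2, 86.1 and 91.0 CPM in untreated replicates 1 to 4. The untreated libraries spread on both sides of the treated ones. The log2 fold change was −0.16 ± 0.27 (edgeR adjusted p = 0.656) with a 95% interval of −0.76 to 0.44. Cyp51, lanosterol 14-alpha demethylase, measured 41.6, 50.1, 35.5 and 49.7 CPM in Romidepsin replicates 1 to 4, against 72.5, 27.7, 38.1 and 42.6 CPM in untreated replicates 1 to 4. Here too untreated replicate 1 was the highest and untreated replicate 2 the lowest of all 8 libraries. The fold change of Cyp51 was −0.03 ± 0.28 (log2, edgeR adjusted p = 0.937, 95% interval −0.66 to 0.60). On the opposite strand Hmgcs1 shares 557 exon bases with Gm48342 and Cyp51 166 with Akap9.

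The untreated spread was shared between enzymes. How many of all tested genes follow the same order of libraries within a group was not counted. That order is therefore not shown to be particular to the enzymes. Untreated replicate 1 was the highest untreated library for 6 of 6 enzymes, and untreated replicate 2 the lowest untreated library for 6 of 6 enzymes and for all 8 genes. Romidepsin replicate 3 was the lowest treated library for 5 of 6 enzymes. All Romidepsin libraries lay above all untreated libraries for 3 of the 6 enzymes (Fdft1, Lss and Dhcr7), against 18.7% of tested genes. Library by library, the 6 enzymes were higher with Romidepsin in 4 of 6, 6 of 6, 4 of 6 and 5 of 6 cases for numbers 1 to 4. The same share over all tested genes was not counted. The replicate numbers were taken to pair the libraries from the correlations of their deviations. With that pairing, 4 enzymes were again higher and 0 lower, against 21.2% and 20.8% of all tested genes.

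**Figure D1:**
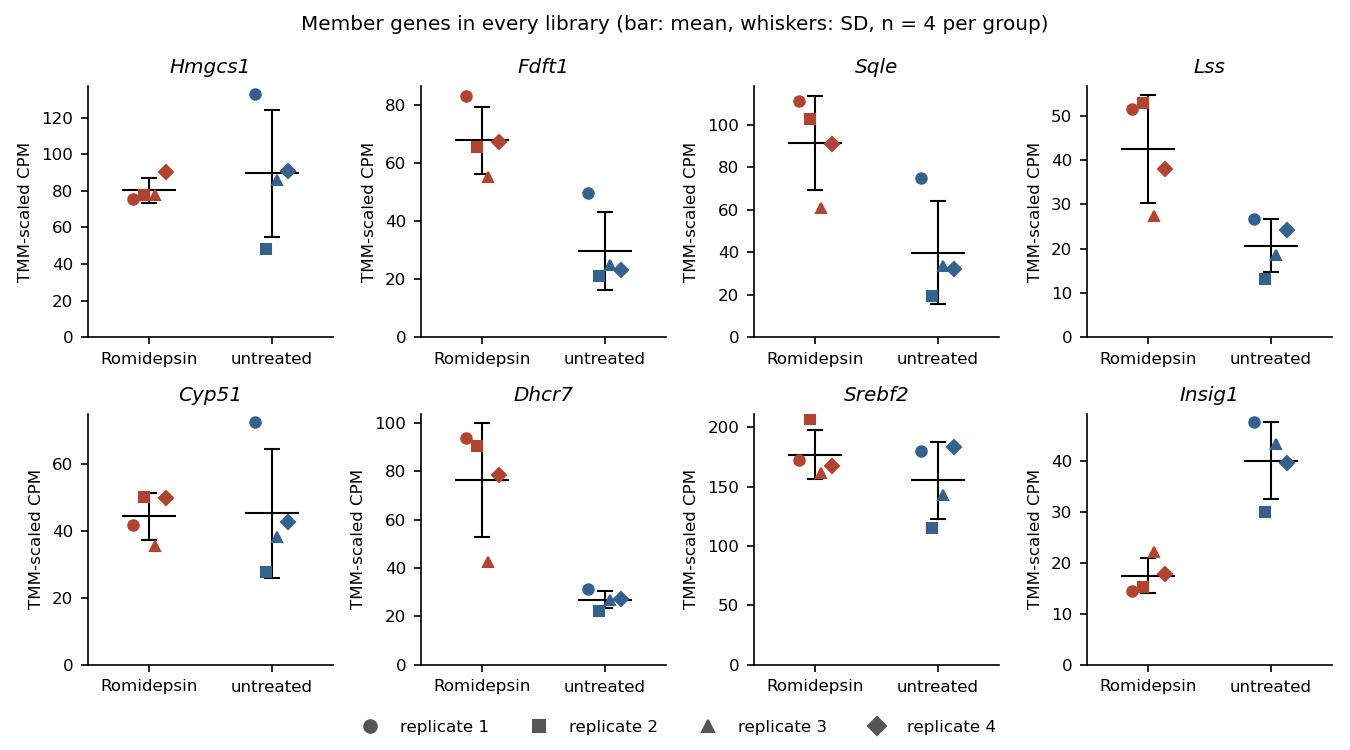
TMM-scaled CPM (y axis) of the 6 enzymes, Srebf2 and Insig1 in the 4 Romidepsin and 4 untreated libraries; each point is a library, the marker shape its replicate number, the bar the mean and the whiskers the SD. Fdft1, Lss and Dhcr7 are separated upwards with Romidepsin (Dhcr7 42.3 to 93.8 CPM against 22.5 to 31.2 CPM) and Insig1 downwards (14.6 to 22.1 CPM against 30.0 to 47.6 CPM), and the other 4 genes overlap.

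Srebf2 encodes SREBP2, the transcription factor. It measured 172, 207, 162 and 167 CPM in Romidepsin replicates 1 to 4 and 179.5, 115, 143 and 183 CPM in untreated replicates 1 to 4. The groups overlapped, and Romidepsin was higher in the pairs numbered 2 and 3 only. The log2 fold change was 0.19 ± 0.19 (edgeR adjusted p = 0.450, 95% interval −0.24 to 0.62). It passed with scaling to 20 housekeeping genes, by their summed counts (0.88, adjusted p = 0.0281), which moves the median fold change of all tested genes to 0.69, against 0.01 in the reported fit. Actb, the most highly expressed of those 20, itself fell in the reported fit (−1.14, edgeR adjusted p = 0.0235).

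Insig1 was the regulator that fell. Its level was 14.6, 15.2, 22.1 and 17.9 CPM in Romidepsin replicates 1 to 4, against 47.6, 30.0, 43.2 and 39.5 CPM in untreated replicates 1 to 4. All treated libraries lay below all untreated ones, as did 16.5% of tested genes, and Romidepsin replicate 3 was again the treated library nearest to the untreated ones. Means were 17.5 ± 3.42 CPM with Romidepsin and 40.1 ± 7.49 CPM without it (SD, n = 4 each), a log2 fold change of −1.2 ± 0.20 (edgeR adjusted p = 0.00366, 95% interval −1.66 to −0.74). The call was lost with housekeeping scaling (−0.53, adjusted p = 0.0684), where the median of all genes moved as given for Srebf2. Insig1 is annotated on chromosome 5 at 28071363 to 28078662 and shares no exon bases with another gene.

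Levels were also compared per kilobase of exon, as CPM per kilobase. In Romidepsin libraries the order was Srebf2 at 24.6, Hmgcs1 at 17.5, Sqle at 16.5, Fdft1 at 16.03, Dhcr7 at 13.1, Cyp51 at 10.0, Insig1 at 5.64 and Lss at 3.94. In untreated libraries Srebf2 stood at 21.6, Hmgcs1 at 19.5, Insig1 at 12.95, Cyp51 at 10.2, Sqle at 7.18, Fdft1 at 7.02, Dhcr7 at 4.62 and Lss at 1.91. Insig1 stood next to last with Romidepsin and behind only Srebf2 and Hmgcs1 in untreated cells. Hmgcs1, Sqle, Fdft1 and Dhcr7 with Romidepsin lie within about 1 SD of their neighbours, as do Srebf2 and Hmgcs1, Cyp51 and Insig1, and Sqle and Fdft1 in untreated libraries.

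Enzyme to regulator ratios were taken within each library, as log2 of one count over the other. Relative to Insig1, all 6 enzymes were higher in every Romidepsin library than in any untreated one, but so were 59.1% of tested genes, since Insig1 itself fell. The Dhcr7 ratio to Insig1 was 2.69, 2.57, 0.94 and 2.13 in Romidepsin replicates 1 to 4, against −0.61, −0.42, −0.69 and −0.54 in untreated replicates 1 to 4, a difference of 2.65. For Hmgcs1 the difference was 1.12 and for Cyp51 1.24, close to the 1.40 of Srebf2 over Insig1. Fdft1 differed by 2.47, Sqle by 2.54 and Lss by 2.24.

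Relative to Srebf2, only Fdft1, Lss and Dhcr7 of the 6 enzymes were separated upwards, against 11.8% of tested genes. Their mean log2 ratios to Srebf2 were −1.39, −2.10 and −1.27 with Romidepsin, against −2.45, −2.94 and −2.51 without it, in that gene order. The ratios of Sqle, Hmgcs1 and Cyp51 to Srebf2 overlapped between the groups, with differences of 1.13, −0.28 and −0.16. These ratios describe counts and carry no test of their own.

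**Figure D2:**
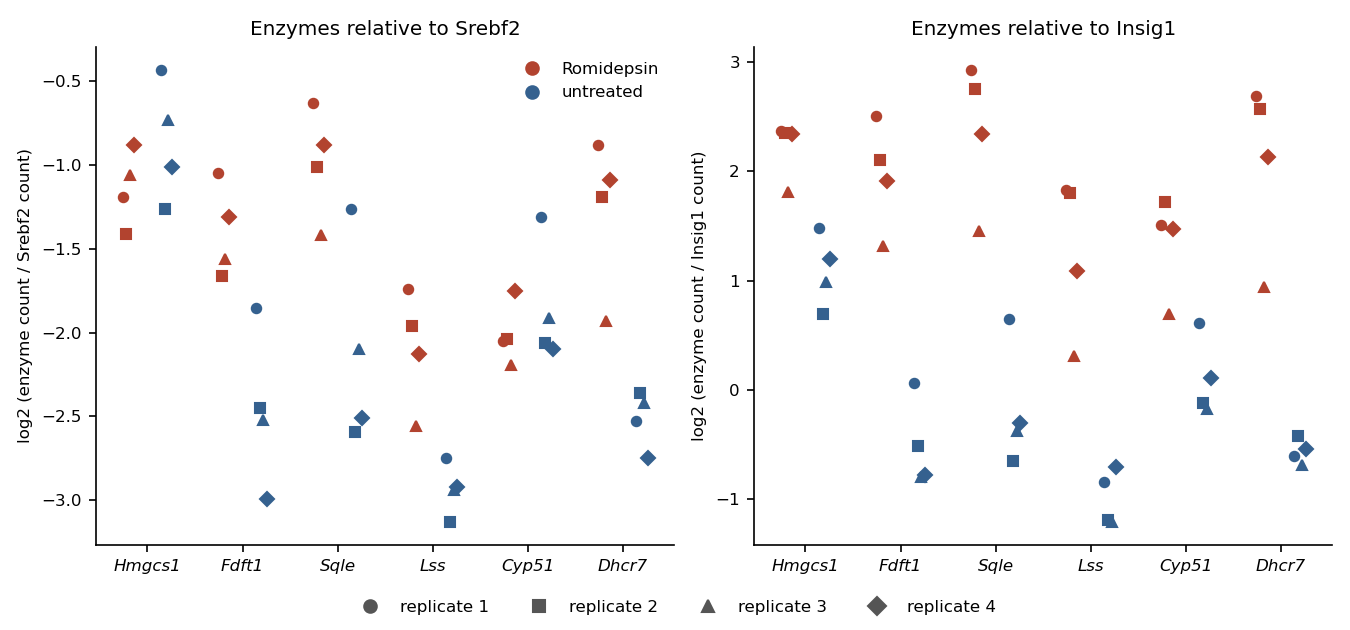
Log2 ratio of each enzyme's count to the Srebf2 count (left) and the Insig1 count (right) in every library, Romidepsin in red and untreated in blue, with the marker shape giving the replicate number. To Srebf2, Fdft1, Lss and Dhcr7 are separated (Dhcr7 mean −1.27 with Romidepsin against −2.51), while to Insig1 all 6 are (Dhcr7 mean 2.08 against −0.57).

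The remaining enzymes of the pathway were described from a list of 15 genes. Of these, 3 rose, near the 20.3% of all tested genes that were higher, and 1 fell, against 16.2% that were lower. With the 6 enzymes, 4 of which rose, 7 of 21 rose, 1 fell and 13 did not pass. The share higher among the 21 thus exceeds 20.3% through the 6 enzymes. Members and lists were chosen with earlier results of these data known. Of the 15, 1 rose without untreated replicate 3, 5 without Romidepsin replicate 3 and 7 without untreated replicate 1. Of all tested genes, 1794 of 13203, 3270 of 13170 and 2414 of 13238 rose there, in that order. With library size alone 7 of the 15 rose, where 3886 of all 12852 genes rose. With housekeeping scaling 11 of the 15 rose and 0 fell, where 5704 of all 12852 genes rose and 624 fell. The median log2 fold change over the 21 was 0.49, against 0.01 over all tested genes, and 17 of the 21 were positive. Up to squalene, 2 of 8 rose and 0 fell, with 0 lower at an unadjusted p under 0.05. After squalene, 4 of 12 rose and 1 fell. The same 20.3% and 16.2% apply to both stages, and both include some of the 6 enzymes. With the pairing, 10 of the 21 rose and 1 fell, against 21.2% and 20.8% of all tested genes, the added genes being Mvk, Mvd and Tm7sf2 (paired adjusted p = 0.0470, 0.0396 and 0.0124).

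Hsd17b7, which acts in C4 demethylation of sterols, had 49.3, 56.9, 8.80 and 25.3 CPM in Romidepsin replicates 1 to 4, against 12.6, 3.799, 5.92 and 8.90 CPM in untreated replicates 1 to 4. Its log2 fold change was 2.16 ± 0.57 (edgeR adjusted p = 0.0188), although Romidepsin replicate 3 fell within the untreated range. The call was lost without untreated replicate 3 (adjusted p = 0.0556) and with no count filter (adjusted p = 0.0660). Acat2, which joins acetyl-CoA units at the start of the pathway, rose by 0.98 ± 0.33 (adjusted p = 0.0422), a call made in 12 of 19 alternative analyses. Ggps1, which makes geranylgeranyl diphosphate on the branch toward prenylation, rose to 53.5 ± 4.04 CPM with Romidepsin, against 34.3 ± 3.29 CPM without it (0.64 ± 0.14, adjusted p = 0.00861). Ebp, the sterol isomerase, fell to 24.4 ± 5.65 CPM with Romidepsin, against 41.2 ± 3.62 CPM without it (−0.76 ± 0.19, adjusted p = 0.0150).

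Lbr, a sterol C14 reductase that is also a nuclear envelope protein, averaged 94.8 ± 22.5 CPM with Romidepsin and 72.6 ± 12.4 CPM without it and did not pass (0.38 ± 0.21, edgeR adjusted p = 0.174). Idi1, isopentenyl-diphosphate isomerase, was low at 4.49 ± 2.15 CPM with Romidepsin and 3.24 ± 1.90 CPM without it (0.46 ± 0.57, adjusted p = 0.535).

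**Figure D3:**
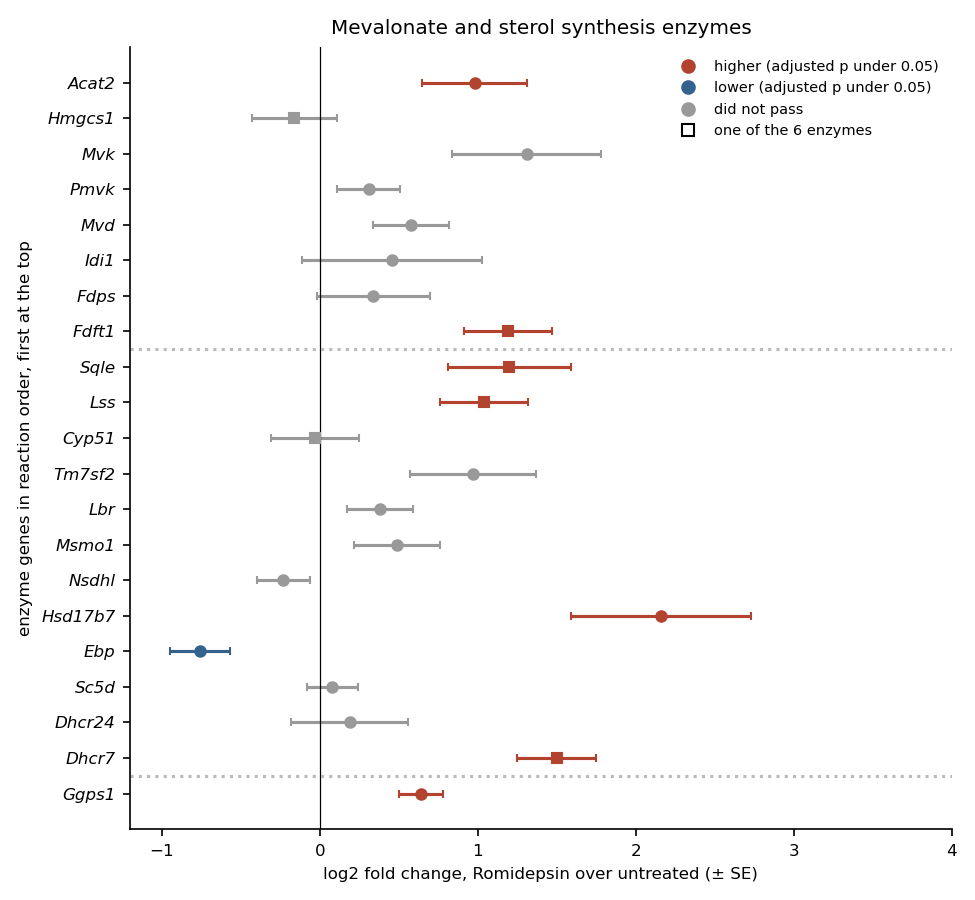
Log2 fold change with its SE for the 21 enzymes in reaction order from top to bottom, squares marking the 6 enzymes of the main list and dotted lines the steps after squalene and the branch enzyme Ggps1. Genes that rose (7, in red) stand between genes that did not pass (13, in grey), and Ebp alone fell (−0.76, in blue).

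Among 11 other genes of SREBP processing and sterol feedback, 2 rose and 1 fell, with a median log2 fold change of −0.10. These shares, 2 and 1 of 11, compare with 20.3% and 16.2% of all tested genes. Without Romidepsin replicate 1, 2 or 4 or untreated replicate 3, 1 rose and 0 fell. Over all tested genes, 1793 to 1935 rose and 1187 to 1323 fell there, against 2610 and 2080 in the reported fit. The list's counts were 3 and 0 without untreated replicate 4, where 2570 and 1795 of all tested genes passed. Without Romidepsin replicate 3 they were 2 and 2, where 3270 and 3077 passed. With housekeeping scaling they were 4 and 0, where 5704 of all 12852 genes rose and 624 fell. Insig2, the paralogue of Insig1, rose to 46.5, 40.0, 42.2 and 42.8 CPM in Romidepsin replicates 1 to 4, against 26.2, 25.0, 30.6 and 29.1 CPM in untreated replicates 1 to 4. The groups did not overlap, and the fold change was 0.63 ± 0.14 (edgeR adjusted p = 0.00937). Insig1 and Insig2 therefore changed in opposite directions. Syvn1, an ubiquitin ligase of the endoplasmic reticulum, rose by 0.52 ± 0.14 (adjusted p = 0.0187).

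Srebf1, which encodes the fatty acid regulator SREBP1, fell to 65.3 ± 3.30 CPM with Romidepsin, against 90.7 ± 14.4 CPM without it (−0.47 ± 0.15, adjusted p = 0.0378). Its sign turned with housekeeping scaling (0.20), and it missed the threshold with the pairing (adjusted p = 0.0657), passing in 6 of 19 alternative analyses. March6, a ubiquitin ligase known to degrade squalene monooxygenase, averaged 122 ± 29.2 CPM with Romidepsin and 81.9 ± 29.7 CPM without it and did not pass (0.57 ± 0.27, adjusted p = 0.122). Rnf139, a ubiquitin ligase of the endoplasmic reticulum, did not pass (−0.58, adjusted p = 0.0634) but was lower with the pairing (−0.57, adjusted p = 0.0286). Scap, the escort protein, averaged 46.2 ± 18.9 CPM with Romidepsin and 35.7 ± 7.29 CPM without it and did not pass (0.37 ± 0.30, adjusted p = 0.348).

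**Figure D4:**
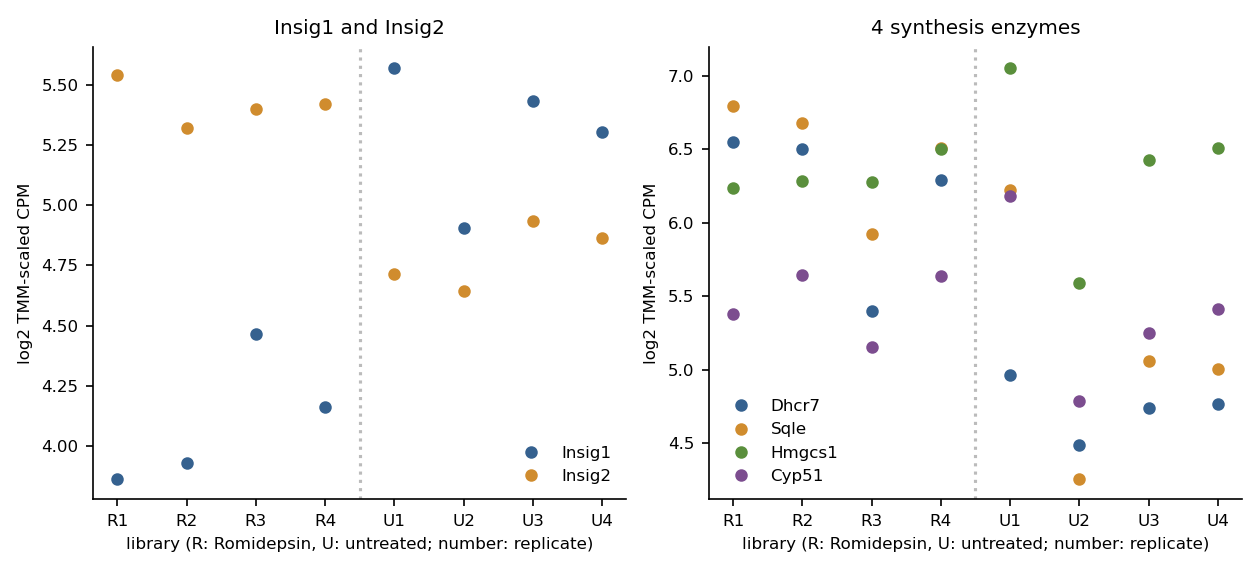
Log2 TMM-scaled CPM of Insig1 and Insig2 (left) and of Dhcr7, Sqle, Hmgcs1 and Cyp51 (right) in each library, R for Romidepsin and U for untreated with the replicate number. Insig1 is lower and Insig2 higher in every Romidepsin library than in any untreated one (Insig2 42.9 CPM on average against 27.7 CPM), and untreated replicate 1 is high for Sqle (74.8 CPM), Hmgcs1 (133 CPM) and Cyp51 (72.5 CPM).

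Of 10 tested sterol uptake and transport genes, 1 rose and 2 fell, with a median log2 fold change of −0.32. Over all tested genes 20.3% rose and 16.2% fell. No gene of this list passed without Romidepsin replicate 1, 2 or 4 or untreated replicate 3. Over all tested genes, only 1793 to 1935 rose and 1187 to 1323 fell there, against 2610 and 2080 in the reported fit. The list's counts higher and lower were 0 and 2 without untreated replicate 1 and 0 and 1 without untreated replicate 2. They were 1 and 0 without untreated replicate 4, and 1 and 4 without Romidepsin replicate 3. Over all tested genes, 2414 and 1774, 2050 and 1462, 2570 and 1795, and 3270 and 3077 passed there, in that order. The list's counts were 3 and 0 with housekeeping scaling, where 5704 of all 12852 genes rose and 624 fell. With library size alone they were 1 and 0, where 3886 of all 12852 genes rose and 1368 fell. Mylip, a ubiquitin ligase induced by LXR, fell (−1.0 ± 0.33, adjusted p = 0.0404), as did the sterol transfer gene Gramd1b (−0.92 ± 0.31, adjusted p = 0.0423). Osbp, an oxysterol-binding lipid exchanger, rose by 0.74 ± 0.24 (adjusted p = 0.0395). Of 19 alternative analyses, Mylip passed in 11, Gramd1b in 10 and Osbp in 13. Npc2, the lysosomal sterol carrier, averaged 1663 ± 551 CPM with Romidepsin and 2506 ± 728 CPM without it and did not pass (−0.59, adjusted p = 0.162), but was lower with the pairing (adjusted p = 0.0442).

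Of 11 tested fatty acid synthesis genes linked to SREBP1, 2 rose and 0 fell in edgeR's test, against 20.3% and 16.2% of all tested genes, with a median log2 fold change of 0.18. In the DESeq2 Wald test 1 was lower, in limma-voom 0, and at an unadjusted p under 0.05 1 was lower, Fasn, fatty acid synthase, named after its values were seen. Without Romidepsin replicate 3, untreated replicate 2 or untreated replicate 3, 1 was also lower, where 3077, 1462 and 1275 of all tested genes were. With library size alone 4 rose, where 3886 of all 12852 genes rose, and with housekeeping scaling 6, where 5704 did. Acss2, which makes acetyl-CoA from acetate, rose to 44.2 ± 5.18 CPM with Romidepsin, against 15.7 ± 3.68 CPM without it (1.49 ± 0.20, edgeR adjusted p = 0.00164). Scd1, a stearoyl-CoA desaturase, rose to 49.0 ± 6.83 CPM with Romidepsin, against 31.7 ± 3.26 CPM without it (0.63 ± 0.16, adjusted p = 0.0144). Its relative Scd2 did not pass (−0.63 ± 0.30, adjusted p = 0.127).

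Of 9 genes listed for oxysterols and for LXR, which answers to sterol excess, 2 rose and 2 fell. Over all tested genes 20.3% rose and 16.2% fell. With the pairing, 2 rose and 6 fell, against 21.2% and 20.8% of all tested genes. The 6 include Abcg1, a cholesterol exporter (adjusted p = 0.0353), Soat1, which esterifies cholesterol (0.0326), and Cyp27a1, sterol 27-hydroxylase (0.0312), none of which passed without the pairing. Without Romidepsin replicate 1, 2 or 4 or untreated replicate 2 or 3, 1 fell, where 1187 to 1462 of all tested genes did. The number lower was 5 without Romidepsin replicate 3 and 4 without untreated replicate 1, where 3077 and 1774 of all tested genes fell. Without Romidepsin replicate 4 or untreated replicate 2, 3 or 4, 1 rose, where 1794 to 2570 of all tested genes did. Lpcat3, a phospholipid acyltransferase, rose by 1.02 ± 0.19 (adjusted p = 0.00550), and Ch25h, cholesterol 25-hydroxylase, by 1.79 ± 0.55 (adjusted p = 0.0323) at 7.50 ± 2.93 CPM with Romidepsin, against 2.19 ± 1.70 CPM without it. The receptor genes Nr1h3, for LXR alpha, and Nr1h2, for LXR beta, fell by 2.10 (adjusted p = 0.0274) and 0.67 (adjusted p = 0.00568), but Nr1h2 did not fall with housekeeping scaling (0.01). Abca1, the cholesterol exporter, measured 69.0, 188, 209 and 171 CPM in Romidepsin replicates 1 to 4, against 59.4, 257, 309 and 644 CPM in untreated replicates 1 to 4, and did not pass (−0.99, adjusted p = 0.218). Apoe, its lipid acceptor, averaged 7647 ± 4745 CPM with Romidepsin and 13610 ± 7746 CPM without it. Its fold change of −0.83 did not pass (adjusted p = 0.371) but passed with the pairing (−1.02, adjusted p = 0.0289).

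In the nonsterol isoprenoid branch, 3 of 10 genes rose and 0 fell in edgeR's test, with 0 lower at an unadjusted p under 0.05, in DESeq2 and in limma-voom. Over all tested genes 20.3% rose and 16.2% fell. Only 1 rose without Romidepsin replicate 1, 2 or 4 or untreated replicate 1 or 3, where 1793 to 2414 of all tested genes rose. With no count filter 1 rose too, where 2532 of 26930 did. Without Romidepsin replicate 3, 5 rose and 1 fell, where 3270 of all tested genes rose and 3077 fell. With library size alone 6 rose, where 3886 of all 12852 genes rose, and with housekeeping scaling 7, where 5704 did. Dhdds, a subunit of the dolichol-forming prenyltransferase, rose by 1.0 ± 0.24 (edgeR adjusted p = 0.0125), Pdss1, which makes the coenzyme Q side chain, by 1.03 ± 0.33 (adjusted p = 0.0380), and Coq2, which attaches that chain, by 0.50 ± 0.17 (adjusted p = 0.0481). The Coq2 call was lost with the pairing (adjusted p = 0.0582), and Coq2 passed in 8 of 19 and Pdss1 in 10 of 18 alternative analyses. Nus1, the partner of Dhdds, did not pass (0.36 ± 0.14, adjusted p = 0.0741).

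Of 5 genes for NF-Y and Sp1, the factors that act with SREBP2 at promoters, 1 rose and 3 fell, against 20.3% and 16.2% of all tested genes. With library size alone 1 fell, where 1368 of all 12852 genes fell, and with housekeeping scaling 0 fell, where 624 did. Nfyb rose by 0.73 ± 0.17 (adjusted p = 0.0105). Nfyc (−0.95 ± 0.20, adjusted p = 0.00859), Sp1 (−0.75 ± 0.17, adjusted p = 0.0103) and Sp3 (−0.96 ± 0.33, adjusted p = 0.0441) fell, Sp3 passing in 9 of 19 alternative analyses. Nfya did not pass (−0.10 ± 0.40, adjusted p = 0.851).

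**Figure D5:**
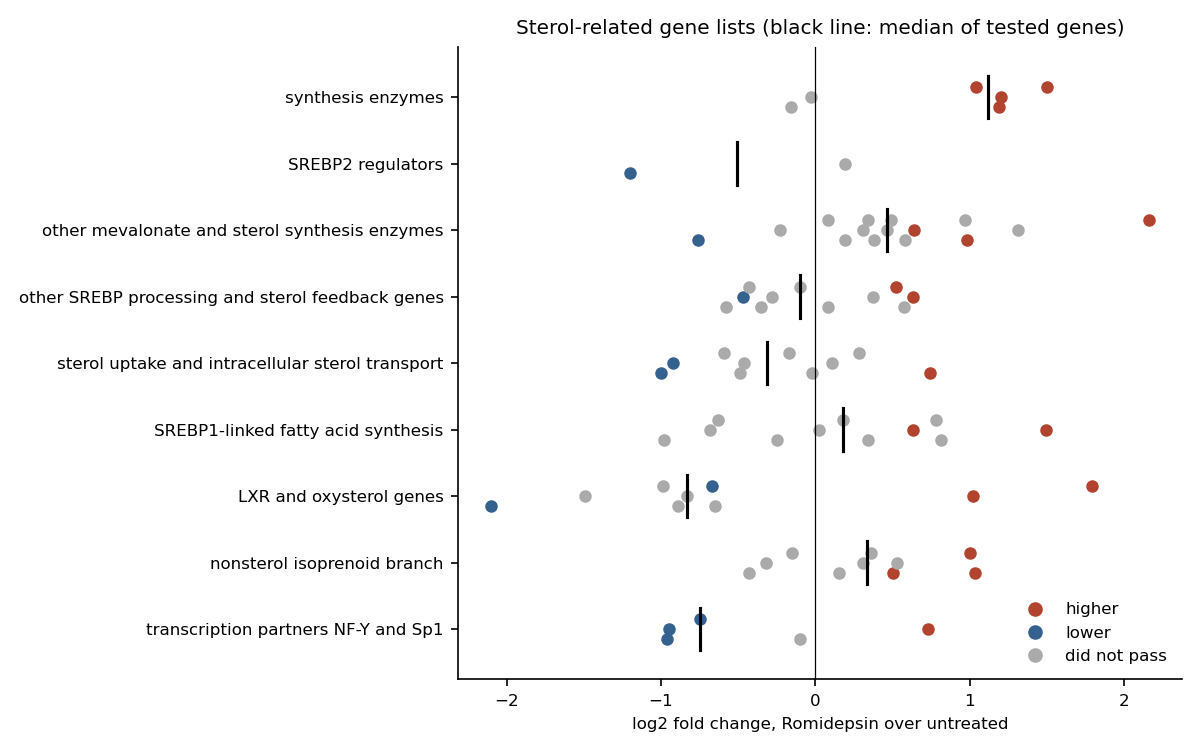
Log2 fold change of every tested gene in 9 sterol-related lists, from the synthesis enzymes at the top to the transcription partners at the bottom, with black lines at the medians. The synthesis enzymes have a median of 1.11, while the uptake and transport list (−0.32) and the LXR and oxysterol list (−0.83) have negative medians.

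Across the 8 libraries, the standardized mean of the 6 enzymes was compared with each of 9031 genes that averaged at least 10 CPM, the members left out, by Pearson's r of log2 CPM. These r describe 8 libraries that also share the treatment difference and the pairing. The 10 closest genes were Ppp3r1 (r = 0.969), Msmo1 (0.968), Hccs (0.955), Zfp719 (0.942), Ets2 (0.939), Aacs (0.938), Fam117b (0.935), Cd164 (0.932), Utp18 (0.932) and Klhl2 (0.930). Msmo1 is itself a sterol C4 demethylation enzyme. Among the genes closest to Insig1 were Atp6v0d1 (r = 0.989), Arf1 (0.987), Arpc4 (0.987) and Cdc42 (0.985). Within the list, Sqle and Fdft1 were closest to each other (r = 0.969), and Hmgcs1 was closest to Cyp51 (r = 0.896). With Insig1, r was −0.898 for Dhcr7, −0.749 for Lss, −0.747 for Fdft1, −0.645 for Sqle, 0.107 for Cyp51 and 0.357 for Hmgcs1. Hmgcs1 and Dhcr7 had r = 0.061, so the mean of the 6 enzymes joins unlike profiles.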

How the data were processed

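Deposited values are raw counts, whole-number reads per Ensembl gene, made by the authors with FastQC, STAR 2.5.2a and DESeq2 on GRCm38 (mm10), per the submitters' processing notes; the counting tool, annotation and strand setting were not given in the sources used here. In R 4.3.3, edgeR 4.0.16 was run on the 12852 genes kept by filterByExpr, with TMM scaling, a robust quasi-likelihood F test (two-sided) and Benjamini-Hochberg adjustment at 0.05. At totals of 12996892 to 23176949, a gene near 1 CPM is imprecise. Log2 fold changes are Romidepsin over untreated. CPM are TMM-scaled. Alternatives were other scalings, count filters, DESeq2 1.42.0, limma 3.58.1 (voom) and left-out libraries, and, added after the data were seen, the replicate block with housekeeping scaling. Same-numbered libraries correlated in their deviations from group means at 0.525, 0.270, 0.457 and 0.171, above the bound of 0.1, so the numbers were taken to pair them. No label says what a number marks. Members, lists and tests were chosen with earlier results of these data known.

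From each wider list, the genes named were up to 4 called ones, by smallest p, in the direction most called genes took, up to 2 that went the opposite way, and the most highly expressed uncalled one, and Idi1, Scap, Insig2, Srebf1, Mylip and Abca1 always. Mvk, Mvd, Tm7sf2, Rnf139, Abcg1, Soat1, Cyp27a1 and Fasn were added after their values were seen. Some genes of the lists were left out of the lists and counts and are not reported here. Of the identifiers, 26881 matched a symbol and 49 did not. Positions and exon overlaps come from GENCODE M21 on GRCm38. Besides Fdft1, Lss, Hmgcs1 and Cyp51, the named genes Acss2, Lpcat3, Ggps1, Syvn1, Pdss1, Srebf1, Ch25h, Gramd1b, Scap, Sp3, Lbr, Idi1 and Rnf139 share exon bases with a gene on the opposite strand, and Nr1h3, Tm7sf2, Srebf1, Scd2, Lbr and Rnf139 with one on the same strand, so their counts are uncertain. The unpaired fits were tested on simulated counts with a fixed dispersion. That test does not cover the pairing or the other scalings.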

Additional observations from a re-analysis of the deposited data

Results flagged for a closer look

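Among 82 groups of 4 libraries, for 41 genes, 2 had a library far from the others, where chance marks about 1 in 20 groups. Hmgcs1 in Romidepsin replicate 4 was at 90.5 CPM, against 77.8 CPM in the next treated library. Fdft1 in untreated replicate 1 was at 49.6 CPM, against 24.9 CPM in the next untreated library, and untreated replicate 1 was also the highest untreated library for the other enzymes.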

How the results depend on the processing

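Dhcr7 and Fdft1 stayed higher, and past the threshold, in all 19 alternatives. Insig1 lost its call with housekeeping scaling, alone (−0.53) and with the replicate block (−0.51). Of 19 alternatives, or 18 for Ch25h, calls were kept in 17 for Hsd17b7, Ebp and Nfyc, 16 for Lss, Nr1h2 and Sp1, 14 for Syvn1, 13 for Nr1h3 and Ch25h and 11 for Sqle. The synthesis enzymes higher numbered 2 to 4 with 1 library left out, 2 without Romidepsin replicate 1, Romidepsin replicate 2 or untreated replicate 3, and 4 with the replicate block and with every scaling. Over all tested genes, with 1 library left out, 1793 to 3270 were higher and 1187 to 3077 lower. With housekeeping scaling 5704 were higher and 624 lower (90.1% of calls higher, against 55.7% in the reported fit), with the replicate block and housekeeping scaling 5876 and 1048, and with library size alone 3886 and 1368 (74.0%). The signs of some genes turned. Hmgcs1 was 0.13 with library size alone, 0.54 with housekeeping scaling, 0.60 with the block and housekeeping scaling, and −0.38 to 0.08 with 1 library left out. Cyp51 was 0.26, 0.70 and 0.72 under those 3 scalings, 0.03 with upper-quartile scaling, 0.04 with limma-voom and with the replicate block, and −0.22 to 0.28 with 1 library left out. Nfya was 0.22, 0.48 and 0.81, 0.00 with limma-voom, 0.10 with the block, and −0.34 to 0.44 with 1 library left out. With housekeeping scaling, alone and with the block, Srebf1 was 0.20 and 0.23, Npc2 0.05 and 0.09, Scd2 0.01 and 0.10, and Nr1h2 0.01 and 0.01. Abca1 turned only with the block and housekeeping scaling together (0.03). The cause of these shifts was not tested. Of the 20 housekeeping genes, 3 rose and 4 fell in the reported fit, against 20.3% and 16.2% of all tested genes. Actb, the most highly expressed of them, averaged 2962 CPM with Romidepsin and 6517 CPM without it. The block changed no other call among genes whose fold change is given than those stated beside them. For Hmgcs1 and Cyp51, changes inside the intervals given with their fold changes (−0.76 to 0.44 and −0.66 to 0.60) were not excluded in the reported fit.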
